A study of Mus musculus with 172 samples.

Results

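C57BL/6J (B6) and DBA/2J (D2) are the inbred parents of the BXD recombinant inbred mouse lines, and the comparison described here is the difference in liver gene expression between them. The liver samples of these 2 strains were taken by their strain and tissue labels, which gave 8 of the 172 RNA-seq libraries of the series. They comprised 4 groups of 2 libraries: B6 Ctr, B6 SD, D2 Ctr and D2 SD. All mice were males of 11 to 14 weeks killed at ZT6, 6 h after light onset. SD mice had been kept awake by gentle handling for those 6 h, and Ctr mice had been left undisturbed in a separate room. Each library was made from the pooled RNA of 3 mice, so the spread between mice is averaged within a pool. Replicate 1 of each group dates from the start of a data collection that lasted about 2 years and replicate 2 from its end, so p-values rest on 2 pools a group. No group carried a transgene, and the only drug the study names for these mice is isoflurane, as anaesthesia before decapitation.

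The liver makes most plasma proteins, turns cholesterol into bile acids, stores and releases glucose and fat, and disposes of foreign compounds through oxidation by cytochromes P450 and conjugation by transferases. Many genes of these tasks lie in clusters of near-identical copies that arose by duplication, and inbred strains differ in which copies they carry and use. B6 and D2 also differ in single variants long known in liver, among them the loss of complement C5 in D2 and a partial deletion of the mitochondrial transhydrogenase gene *Nnt* in B6J. The B6 genome is moreover the reference to which the reads of both strains were aligned. The part of that in the differences below was not tested.

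The deposited values are log2 CPM (counts scaled to the size of each library), listed for 14107 liver genes. Whole read counts could be recovered from them, and the 8 libraries held 5690812 to 7491781 reads on the listed genes. The 2 D2 SD libraries were the shallowest, with 5785013 and 5690812 reads, against 7491781 and 7250062 in B6 SD. A gene without a read is listed at -2.77 log2 CPM in Ctr and at -2.75 in SD, and 88 to 227 genes a library stood at that value. Reads per gene levelled off at the top: no library exceeded 1.82 reads per exonic base in any gene. Whether this narrowed the differences of the most abundant genes was not tested. Hepatocyte markers were high in every library, with a summed level of 6346 to 8111 CPM over 13 genes. Within SD that sum was 6346 to 6599 CPM in B6 and 7953 to 8111 in D2. Within Ctr the strains overlapped, at 6773 to 7070 and 6435 to 6962 CPM. Replicates of a group correlated at 0.9811 to 0.9862 (Pearson, across genes) and differed beyond sampling noise, with a chi-square of 2.08 to 3.51 per degree of freedom, so each was counted as a sample of its own. Strain was the main axis of variation: all 4 B6 libraries lay between -42.3 and -38.5 on the first principal component, which took 49.6% of the variance, and all 4 D2 libraries between 37.3 and 42.3.

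Strain differences were tested in a linear model of log2 CPM with strain and condition as factors, 4 libraries against 4 (limma, two-sided, Benjamini-Hochberg over all listed genes, called at an adjusted p under 0.05). The spread in this fit holds that between replicate pools and any change of the strain difference between Ctr and SD. Differences are given as B6 minus D2, so positive values are higher in B6. Where 4 values are given for a strain, they are log2 CPM of Ctr replicates 1 and 2 and then SD replicates 1 and 2. The strains differed in 2524 genes, or 17.9% of those listed. Of these, 1336 were higher in B6 (9.47%) and 1188 higher in D2 (8.42%). Their median size was 0.587 on the log2 scale, 773 differed by at least 2-fold (385 higher in B6, 388 in D2) and 129 by at least 8-fold (60 and 69). In 2318 of the 2524, or 91.8%, the strains did not overlap within Ctr nor within SD, in the same direction. Over all listed genes that share was 25.6%.

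Within single conditions, 2 libraries against 2, the strains differed in 1466 genes in Ctr (10.4%) and in 4175 in SD (29.6%). The same direction was called in both conditions for 1001 genes (7.1%), of which 481 were higher in B6 and 520 in D2. All 1001 were also called in the fit over both conditions, which uses the same libraries and so is no independent evidence. Another 12 genes were called in both conditions with opposite signs. Genes with large differences in Ctr had large differences in SD, as the plot of the 2 conditions shows.

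**Figure D1:**
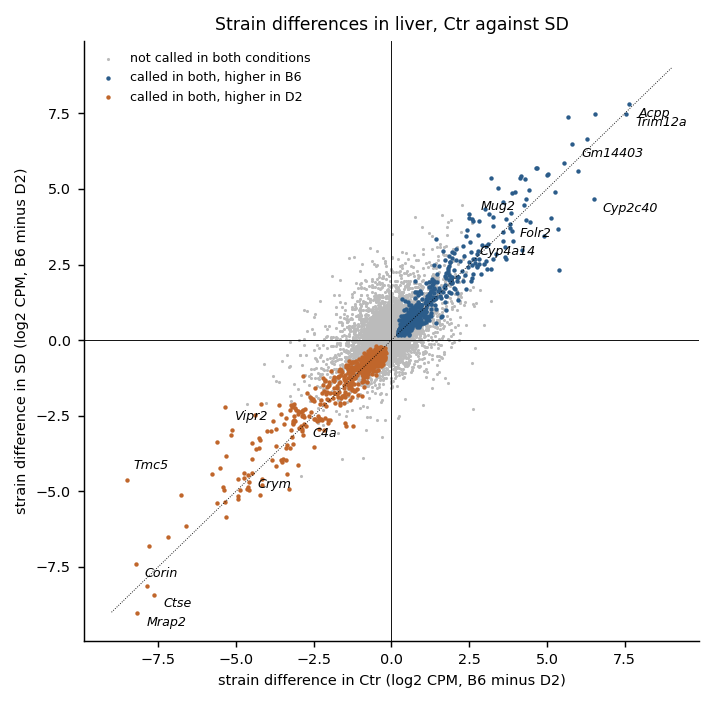
Strain difference of each of the 14107 liver genes in Ctr (x axis) and in SD (y axis), both as log2 CPM, B6 minus D2, from 2 libraries a group. Blue and orange points are the 1001 genes called in both conditions with the same sign (481 higher in B6, 520 higher in D2), gray points all others, and the dotted line marks equal differences. The coloured points lie along that line, with *Tmc5* farthest from it among the genes named.

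The strain difference varied with read density, in opposite directions in the 2 conditions. When genes were split into 5 equal groups by reads per exonic base, the median strain difference in SD fell from 0.19 in the sparsest group to -0.2 in the densest, while in Ctr it went from -0.1 to 0.035. With that trend removed from each library, an alternative chosen after seeing the data, the count in SD was 2691, in Ctr 1368 and over both conditions 2658, each of 13105 genes with a known exonic length. Of the 916 genes held in both conditions that had such a length, 819 (89.4%) were still held. Centring each library on its median left 4451 calls in SD but changed their split, from 1924 higher in B6 and 2251 in D2 to 1429 and 3022. The part of depth in the larger count in SD was not tested.

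**Figure D2:**
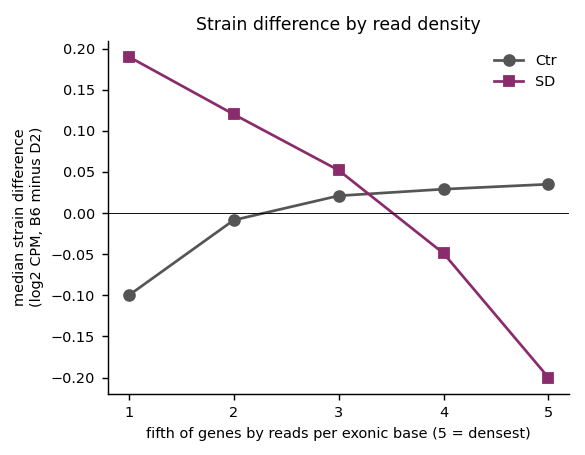
Median strain difference (log2 CPM, B6 minus D2) in 5 equal groups of genes ordered by reads per exonic base, for Ctr (circles) and SD (squares), over genes with a mean of at least 2 log2 CPM. In SD the medians run from 0.19 to -0.2, in Ctr from -0.1 to 0.035.

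Several of the 12 genes with the largest differences higher in D2 were at or close to 0 reads in B6. *Mrap2* (chr9:87039140-87078880, mm9), which encodes an accessory protein of melanocortin receptors, had no read in any B6 library. In D2 it was at 5.56 and 5.24 log2 CPM in Ctr and at 6.33 and 6.25 in SD. With 3 reads over the 4 B6 libraries taken as the floor, *Mrap2* was at least 548-fold higher in D2 (adjusted p = 1.6e-10). *Ctse* (chr1:133534883-133572080), the aspartic protease cathepsin E, was at -0.44 and -0.72 in B6 Ctr and at -1.28 and -1.80 in B6 SD. Its D2 values were 7.12 and 6.96 in Ctr and averaged 6.88 in SD. The difference was -8.03 ± 0.22 (SE, 4 libraries a strain, adjusted p = 3.77e-11).

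*Corin* (chr5:72691264-72895779) encodes the protease that activates the natriuretic peptide precursor of the heart. It was at -1.18, -1.74, -0.88 and -0.83 log2 CPM in the B6 libraries and at 6.81, 6.71, 6.58 and 6.55 in the D2 libraries (-7.82 ± 0.23, adjusted p = 4.35e-11). *H2-Ea-ps* (chr17:34478897-34481589), the class II E alpha chain gene that B6 mice do not express, had 0 reads in B6 and 964 in D2, at 4.57 and 5.59 in Ctr and 5.06 and 5.71 in SD, and was at least 367-fold higher in D2 (adjusted p = 1.37e-09). *Nuggc*, a germinal centre GTPase, was at -2.77 to -0.57 in B6 and at 5.08 to 5.58 in D2 (-7.31 ± 0.43, adjusted p = 5.35e-08). The strains were separated by more than 5 log2 units in each of these genes.

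*Ifi202b*, an interferon-inducible gene of the HIN-200 family, had 2 reads over the B6 libraries and 538 over the D2 libraries, a ratio of 308 (95% counting interval 84.7 to 2546). The alpha-1D adrenoceptor gene *Adra1d* had 1 read in B6 and 207 in D2, a ratio of 237 with an interval of 42 to 9394. Such intervals and floors cover counting error only. The chemokine receptor gene *Ccr3* ranged from -1.74 to 0.04 in B6 and from 4.58 to 4.99 in D2, and the semaphorin gene *Sema3e* from -1.24 to 0.41 and from 4.01 to 5.15. *Neto1*, an auxiliary subunit of glutamate receptors, and the predicted gene *Gm5077* were also in this group, at -5.95 ± 0.41 and -6.38 ± 0.26. *Tmc5*, a member of the transmembrane channel-like family, was at -2.77 and -1.74 in B6 Ctr, at 1.72 and 1.32 in B6 SD and at 6.10 to 6.43 in all D2 libraries.

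Of the 12 genes with the largest differences higher in B6, *Trim12a* (chr7:111448408-111463980), a tripartite-motif gene of a cluster related to antiviral restriction factors, had no read in D2. In B6 it was at 4.71 and 4.84 log2 CPM in Ctr and at 4.72 and 4.77 in SD, at least 222-fold higher (adjusted p = 9.57e-10). *Acpp* (chr9:104190581-104240058), prostatic acid phosphatase, had 1479 reads in B6 and 3 in D2, a ratio of 431 (147 to 2093). *Olfr1033*, an olfactory receptor gene, had 776 reads against 1 (ratio 679, 121 to 26838), and *Cebpe*, a transcription factor of granulocytes, 435 against 1 (ratio 380, 67.9 to 15060). These genes were thus at or within 3 reads of 0 across the 4 D2 libraries.

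*Gm14403* (chr2:177282920-177297014) was at 6.53, 6.34, 6.99 and 6.96 in the B6 libraries and at 0.75, 0.51, 0.48 and 0.51 in the D2 libraries (6.14 ± 0.17, adjusted p = 3.77e-11). *Nlrp12*, a member of the NOD-like receptor family, was at 5.75 and 5.61 in B6 Ctr and 6.46 and 6.90 in B6 SD, against 0.61 and -1.22 in D2 Ctr and 1.08 and 1.11 in D2 SD (5.79 ± 0.30, adjusted p = 1.62e-08). The HIN-200 gene *Mndal*, next to *Ifi202b* in the same family cluster of chromosome 1, went the other way, at 3.58 to 4.98 in B6 and -2.75 to 0.51 in D2. The noncoding genes *2610507I01Rik* and *4930412C18Rik* and the gene *4930481A15Rik* were higher in B6 by 6.52 ± 0.43, 5.26 ± 0.30 and 5.70 ± 0.54. The remaining members, *Cyp2c40* and *Cyp2c69*, are described with the cytochromes P450. Over the whole table, 43 called genes had no read in the 4 libraries of a strain, 24 of them in B6 and 19 in D2.

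**Figure D3:**
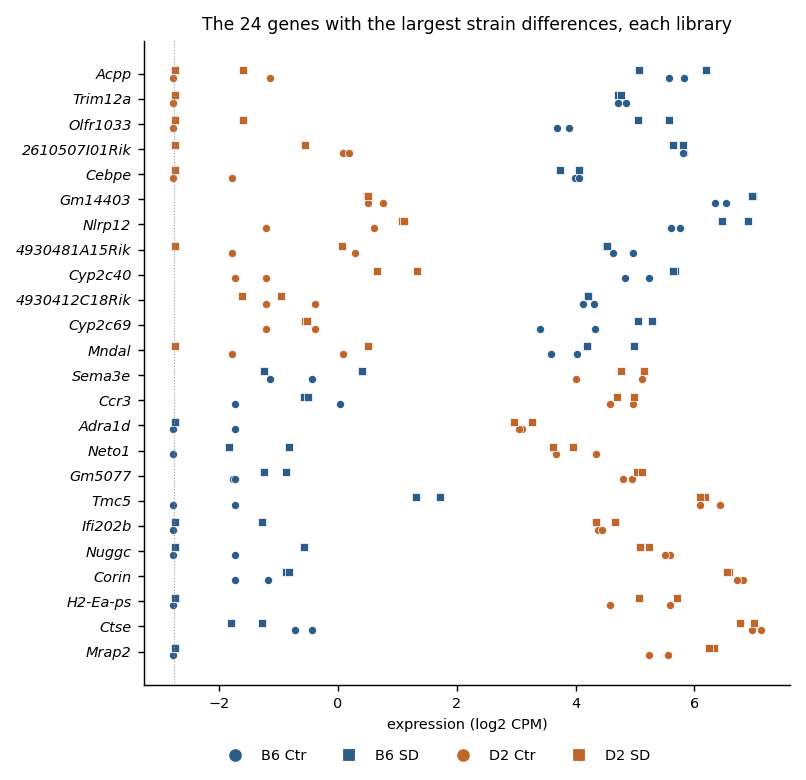
Level (log2 CPM) in each of the 8 liver libraries of the 12 genes with the largest difference higher in B6 (top) and the 12 higher in D2 (bottom), among called genes with a mean of at least 0 log2 CPM and no overlap of the strains. Circles are Ctr and squares SD, blue is B6 and orange is D2, and the dotted line marks the value of a gene without a read. In *Tmc5* the B6 SD libraries stand apart from B6 Ctr, at 1.72 and 1.32.

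Among abundant genes, with a mean of at least 8 log2 CPM, the largest differences were smaller. Reads per gene levelled off at the top, and whether this narrowed these differences was not tested. *Aox3* (chr1:58169974-58257542), aldehyde oxidase 3, was at 9.64, 9.72, 9.46 and 9.46 in B6 and at 8.49, 8.56, 8.26 and 8.33 in D2, which is 2.23-fold higher in B6 (1.16 ± 0.06, adjusted p = 1.17e-08). The complement C5 gene *Hc* (chr2:34838851-34916958) was at 9.81, 9.92, 9.77 and 9.84 in B6 and at 8.84, 8.85, 8.87 and 8.93 in D2 (0.96 ± 0.06, adjusted p = 1.63e-07). *Abcc6*, an efflux transporter needed to prevent ectopic calcification, was at 8.42 to 8.64 in B6 and 7.67 to 8.01 in D2, 1.63-fold higher. The desmosomal cadherin gene *Dsg2*, the phosphatidate phosphatase gene *Lpin1* and the transporter gene *Abca8a* were higher in B6 by 1.5-fold, 1.52-fold and 1.3-fold. The call of *Lpin1* was lost in the limma fit over all 43 pools of each condition (adjusted p = 0.0889).

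The largest difference of abundant genes in the other direction was that of the lipid transporter gene *Abca3* (chr17:24488895-24547146), at 8.22, 8.11, 7.87 and 7.76 in B6 and 9.39, 9.28, 9.45 and 9.52 in D2 (-1.42 ± 0.09, adjusted p = 1.18e-07). The flippase gene *Atp9a* was 1.56-fold higher in D2, the haem synthesis gene *Alad* 1.51-fold, *Pm20d1*, which makes N-acyl amino acids, 1.43-fold, the bile acid synthesis gene *Cyp7a1* 1.41-fold and the proprotein convertase gene *Pcsk6* 1.35-fold. In all 12 of these abundant genes the strains did not overlap in either condition and the difference was called in Ctr and in SD. Over all listed genes these shares were 25.6% and 7.1%. The 12 were picked from the same libraries for large called differences, so their count is no independent evidence.

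Foreign compounds are first oxidised, mainly by cytochromes P450. Of 46 cytochromes P450 of families 1 to 3, the drug, steroid and retinoid hydroxylases, 10 were higher in B6 and 13 in D2 (50% called, against 17.9% of all genes). Of the called genes 15 were held in both conditions, 8 higher in B6 and 7 in D2. Beside each list below stand the same shares over all genes, 17.9% called and 7.1% held in both conditions. The median difference of the 46 was -0.18, against 0.00 over all genes, and -0.04 with the density trend removed. Differences of opposite sign lay within the *Cyp2c* cluster of chromosome 19. *Cyp2c40* (chr19:39841561-39887304) was at 5.24, 4.83, 5.67 and 5.63 in B6 and at -1.74, -1.22, 0.66 and 1.33 in D2. *Cyp2c69* was at 3.40 to 5.28 in B6 and -1.22 to -0.39 in D2. *Cyp2c39* (chr19:39585352-39643019) was at 2.59, 2.78, 3.22 and 4.00 in B6 and 6.71, 6.10, 6.82 and 6.26 in D2, 10-fold higher in D2 (-3.32 ± 0.21, adjusted p = 9.9e-08). Sequence stretches of 100 bases that also occur in another gene made up 36.6% of *Cyp2c40* and 33.6% of *Cyp2c69* but 0% of *Cyp2c39*, so reads of the first pair are uncertain in origin.

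Other P450 genes higher in D2 were the steroid and drug hydroxylases *Cyp3a44* (-2.67 ± 0.54), *Cyp2b10* (-2.12 ± 0.25), *Cyp2d12* (-2.03 ± 0.32) and *Cyp2c55* (-1.43 ± 0.17). *Cyp3a13*, *Cyp3a59* and *Cyp2c44* were higher in B6, by 1.08 ± 0.08, 1.05 ± 0.09 and 1.02 ± 0.06. Of 15 P450 genes of family 4, whose *Cyp4a* members are fatty acid omega-hydroxylases that respond to PPAR alpha, 4 were higher in B6 and 2 in D2 (median -0.05). *Cyp4a14* was at 6.70, 6.79, 6.73 and 7.39 in B6 and at 4.80 and 3.63 in D2 Ctr, with a mean of 3.82 in D2 SD (2.89 ± 0.31, adjusted p = 1.71e-05). Its neighbours *Cyp4a10* and *Cyp4a31* were higher in B6 by 2.54 ± 0.23 and 2.74 ± 0.20. *Cyp4a32*, at chr4:115273574-115294207 next in line, was 2.08-fold higher in D2 (-1.06 ± 0.07, adjusted p = 2.54e-07). Among the 4 genes, shared 100-base stretches ranged from 0% in *Cyp4a14* to 20.1% in *Cyp4a32*.

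Conjugating enzymes attach glutathione, sulphate or glucuronic acid. Of 20 glutathione S-transferases 10 were called, all higher in D2, as they were with median-centred libraries, with quantile normalization (11) and with the density trend removed (10). Of the 10 called in the fit over both conditions, 4 were held in both conditions. The median of the 20 was -0.30. The largest difference was that of *Gsto2*, with 11 reads in B6 and 47 in D2 (-2.13 ± 0.48, adjusted p = 0.00703). *Gstm3* was at 6.83, 6.67, 6.34 and 6.30 in B6 and at 7.27, 7.22, 7.48 and 7.43 in D2 (1.76-fold, -0.82 ± 0.10, adjusted p = 7.14e-05), and *Gstm4* and *Gstm2* were 1.36-fold and 1.33-fold higher in D2. All 5 flavin monooxygenases, which oxygenate nitrogen and sulphur, were higher in D2, also under those 3 alternatives, with a median of -0.74. Of the 5, 3 were held in both conditions. *Fmo2* (chr1:164804448-164828857) was at 5.29, 5.06, 6.12 and 5.91 in B6 and at 7.01, 6.66, 7.62 and 7.19 in D2 (2.88-fold, adjusted p = 3.64e-07). *Fmo4* was 1.67-fold higher in D2. *Fmo1* and *Fmo5* differed by -0.31 ± 0.06 and -0.27 ± 0.08.

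Of 7 sulfotransferases (median -0.29) 4 were higher in D2 and none in B6, and 1 was higher in B6 once the density trend was removed. *Sult5a1* was 1.92-fold higher in D2. Of 18 UDP-glucuronosyltransferases 4 were higher in each strain (median -0.11). *Ugt1a9* was at 5.53, 5.53, 5.22 and 5.34 in B6 and 6.54, 6.44, 6.70 and 6.65 in D2 and *Ugt1a10* was 5.55-fold higher in D2, whereas *Ugt1a5* was 1.63-fold higher in B6. These *Ugt1a* genes share exons, and 52.3% to 63.1% of their stretches occur in another gene. Of 16 carboxylesterases (median -0.13) 3 were higher in D2, or 18.8%, close to the 17.9% of all genes (*Ces1e* 1.3-fold, *Ces1b* and *Ces1g* 1.18-fold), and 1 was higher in B6 with the density trend removed or with quantile normalization. *Ces1b* lost its call with sampling round as a block (adjusted p = 0.05).

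**Figure D4:**
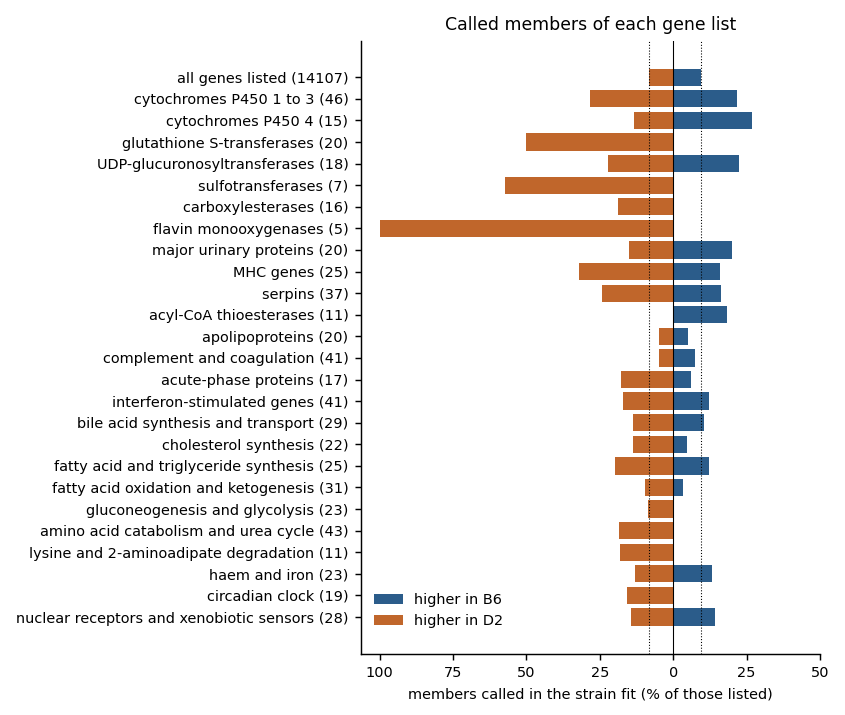
Share of the listed members of each gene list that was called in the strain fit, higher in B6 (right, blue) or higher in D2 (left, orange), in percent. The number listed is in parentheses, and the dotted lines mark the shares over all 14107 genes, 9.47% and 8.42%. The 5 flavin monooxygenases and the 10 called glutathione S-transferases were all higher in D2.

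Secreted proteins of the liver differed by cluster. Of 37 serpins, inhibitors of serine proteases, 6 were higher in B6 and 9 in D2, or 9 and 9 with the density trend removed (median -0.12 and -0.01). In the *Serpina3* cluster of chromosome 12, *Serpina3h* (chr12:105486115-105491879) was at -0.44, -0.72, 0.09 and -0.51 in B6 and 4.06, 4.49, 4.74 and 4.73 in D2 (-4.90 ± 0.25, adjusted p = 1.21e-08). *Serpina3a* had 3 reads in B6 and 202 in D2, a ratio of 77 (26 to 376), while *Serpina3f* was 4.11-fold higher in B6. In the alpha-1 antitrypsin cluster on the same chromosome *Serpina1e* was 6-fold higher in B6 (2.59 ± 0.11, adjusted p = 1.76e-09), and *Serpina1c* and *Serpina1d* were 1.91-fold and 1.75-fold higher. *Serpina1a*, where 32.9% of stretches are shared with another gene, was 1.22-fold higher.

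Of 20 major urinary protein genes, carriers of pheromones, 4 were higher in B6 and 3 in D2 (median -0.03). *Mup11*, *Mup14* and *Mup12* were higher in B6 by 3.33-fold, 2.58-fold and 2.35-fold and *Mup9* 1.83-fold higher in D2, but 77.4% to 89.1% of the stretches of these 4 genes recur in other genes, so their reads could not be assigned with confidence. Of 41 complement and coagulation genes only 5 were called (12.2%, under the 17.9% of all genes), 3 higher in B6 and 2 in D2. They included *C4a* (chr17:34946037-34960409), the sex-limited protein gene of the complement region, at 6.42, 6.25, 6.88 and 6.38 in B6 and 9.16, 9.13, 9.32 and 9.52 in D2 (6.98-fold, -2.80 ± 0.09, adjusted p = 1.6e-10). Shared stretches were not measured for *C4a*, which the annotation does not list as protein-coding, so the origin of its reads was not checked. *Cfd*, complement factor D, was 4.26-fold higher in B6. With the density trend removed 11 genes of the list were higher in B6 and 1 in D2, and the median moved from -0.13 to 0.02.

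Of 20 apolipoprotein and lipoprotein genes 2 were called (10%, under the 17.9% of all genes, median -0.16). *Apoa4* was 1.51-fold higher in D2 and the phospholipid transfer protein gene *Pltp* 1.42-fold higher in B6. With the density trend removed 3 were higher in B6 and 1 in D2. Of 17 acute-phase genes (23.5% called, median -0.14) 3 were higher in D2, *Orm3* (2.18-fold), serum amyloid P *Apcs* (1.57-fold) and *Saa4* (1.21-fold). *Fgl1* was higher in B6 (1.21-fold). The call of *Fgl1* was lost with median-centred libraries.

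Of 25 genes of the H2 complex, the major histocompatibility complex of the mouse, 4 were higher in B6 and 8 in D2, or 3 and 8 with the density trend removed (median -0.09). The strains carry different H2 haplotypes, so reads of D2 alleles may align less well to the B6 reference, which was not tested. Beside *H2-Ea-ps*, the nonclassical genes *H2-T3* and *H2-T10* stood out. *H2-T3* had 0 reads in B6 and 120 in D2, at least 45.7-fold higher (adjusted p = 5.52e-07). *H2-T10* was at 2.79, 2.61, 2.91 and 2.54 in B6 and 5.08, 5.05, 5.07 and 5.42 in D2 (5.44-fold). The classical class I gene *H2-K1* was 1.59-fold higher in B6, and *H2-Q1* and the peptide-loading regulator gene *H2-Ob* 3.08-fold and 4.99-fold higher in B6. Of 41 interferon-stimulated genes 5 were higher in B6 and 7 in D2 (29.3% called), or 5 and 5 with the density trend removed (median -0.02). *Xaf1*, a proapoptotic gene, was at 4.64, 4.81, 4.17 and 4.85 in B6 and 6.05, 5.98, 5.93 and 6.30 in D2 (2.72-fold, adjusted p = 5.18e-06), the GTPase genes *Mx2* and *Igtp* were 1.71-fold and 1.56-fold higher in D2, and the RNA sensor gene *Ifih1* was 1.32-fold higher in B6, as was the antiviral gene *Oas1b*, by 2.65-fold.

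Genes of core metabolism are given by pathway. In bile acid synthesis and transport 7 of 29 genes were called (24.1%, against 17.9% of all genes). All 7 were held in both conditions, against 7.1% of all genes. Of the 7 called, 3 were higher in B6 and 4 in D2 (median of the list -0.10), or 5 and 5 with the density trend removed. *Cyp39a1*, an oxysterol hydroxylase, was at 6.17, 6.21, 6.32 and 6.24 in B6 and 4.13, 4.04, 5.16 and 4.28 in D2 (3.56-fold, 1.83 ± 0.16, adjusted p = 2.2e-06). The uptake transporter gene *Slco1a4* was 2.12-fold higher in B6, and the canalicular transporter gene *Abcc2* 1.29-fold. *Cyp7a1*, the rate-limiting enzyme of bile acid synthesis, was at 7.68, 8.01, 8.09 and 7.83 in B6 and 8.51, 8.32, 8.45 and 8.32 in D2 (-0.50 ± 0.09, adjusted p = 0.000953), and the receptor gene *Fgfr4*, which represses it, was 1.35-fold higher in D2.

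Of 22 cholesterol synthesis genes 1 was higher in B6 and 3 in D2 (18.2% called, close to the 17.9% of all genes, median 0.07). *Tm7sf2*, *Nsdhl* and *Dhcr7* were higher in D2 by 1.16-fold, 1.16-fold and 1.15-fold. These 3 lost their call in limma with sampling round as a block (adjusted p = 0.0639, 0.0662 and 0.067). In fatty acid and triglyceride synthesis 3 of 25 genes were higher in B6 and 5 in D2 (32% called, median -0.11). With the density trend removed the counts were 5 and 3 (median 0.01). *Acaca*, acetyl-CoA carboxylase 1, was at 7.90, 8.11, 8.38 and 8.01 in B6 and 7.58, 6.89, 7.11 and 6.98 in D2 (1.95-fold, 0.96 ± 0.13, adjusted p = 0.000153). In fatty acid oxidation and ketogenesis 1 of 31 genes was higher in B6 and 3 in D2 (12.9% called, under the 17.9% of all genes). With the trend removed the counts were 7 and 4 (median -0.11, and 0.01 with it removed). The 1 gene higher in B6 was *Mlycd* (chr8:121918778-121935002), malonyl-CoA decarboxylase, which removes the product of *Acaca*. It was at 7.05, 7.02, 6.93 and 7.02 in B6 and 5.87, 5.91, 5.58 and 5.67 in D2 (2.37-fold, 1.25 ± 0.07, adjusted p = 1.62e-08). The hormone gene *Fgf21* had 103 reads in B6 and 157 in D2, a difference of -1.29 ± 0.41 (adjusted p = 0.0422), and its libraries overlapped between the strains.

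In gluconeogenesis and glycolysis 2 of 23 genes were called (8.7%, under the 17.9% of all genes), both higher in D2 (median -0.15). With the density trend removed 5 were higher in B6 and 4 in D2 (median -0.04). *Pfkfb3*, which sets the level of the glycolytic activator fructose 2,6-bisphosphate, was at 5.91, 6.40, 7.38 and 7.34 in B6 and 6.81, 7.09, 8.23 and 8.54 in D2 (1.88-fold, adjusted p = 3.23e-05), and the glucose-6-phosphatase gene *G6pc* was 1.36-fold higher in D2. In amino acid catabolism and the urea cycle 8 of 43 genes were called, or 18.6%, close to the 17.9% of all genes, all higher in D2 by 1.15-fold to 1.27-fold. None of the 8 was held in both conditions, and 4 were higher in B6 and 8 in D2 with the density trend removed. The median of the list was -0.17, and -0.04 with the trend removed. *Gldc*, glycine decarboxylase, was the largest at -0.34 ± 0.08, and *Bhmt*, which remethylates homocysteine, lost its call with sampling round as a block (adjusted p = 0.0521). Within lysine degradation 2 of 11 genes were higher in D2, or 18.2% against the 17.9% of all genes (median -0.17), and 3 with the density trend removed. *Crym* (chr7:127329894-127345625), a ketimine reductase that also binds thyroid hormone, was at 1.04, 1.09, 1.33 and 0.96 in B6 and 5.60, 5.75, 5.70 and 5.51 in D2 (23.2-fold, -4.53 ± 0.16, adjusted p = 4.1e-10).

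*Dhtkd1* (chr2:5817161-5863838), part of the 2-oxoadipate dehydrogenase complex, was at 6.90, 7.09, 6.32 and 6.60 in B6 and 8.20, 7.97, 8.05 and 8.14 in D2 (2.57-fold, -1.36 ± 0.11, adjusted p = 7.34e-07). Of 23 haem and iron genes 3 were higher in each strain (26.1% called, median -0.08), or 2 in B6 and 3 in D2 with the density trend removed. The paralogs for the iron hormone hepcidin went opposite ways: *Hamp* was at 5.75, 5.84, 5.63 and 5.64 in B6 and 4.98, 4.90, 4.95 and 5.02 in D2 (1.68-fold higher in B6), whereas *Hamp2* was 2.32-fold higher in D2. *Alad* was at 7.85, 7.94, 7.76 and 7.65 in B6 and 8.41, 8.56, 8.37 and 8.24 in D2. Of 19 circadian clock genes, in mice all killed at ZT6, 3 were higher in D2 and none in B6 (15.8% called, median -0.17). *Per1* was 1.4-fold and *Nfil3* 1.25-fold higher in D2, and the call of *Nfil3* was lost in limma with sampling round as a block (adjusted p = 0.0534). Of 28 nuclear receptors and xenobiotic sensors 4 were higher in each strain (28.6% called, median -0.03). *Rxrg* was the largest at -0.60 ± 0.13, and *Ahr*, the aryl hydrocarbon receptor, was 1.28-fold higher in B6. The thyroid hormone receptor gene *Thra* lost its call with sampling round as a block (adjusted p = 0.0526). With median-centred libraries 1 was higher in B6 and 4 in D2.

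Among genes at which the strains are known to carry different variants, *Nnt* (chr13:120124255-120197804) was at 7.09, 7.09, 7.08 and 7.09 in B6 and 7.87 and 7.79 in D2 Ctr, with a mean of 7.95 in D2 SD (1.74-fold, -0.80 ± 0.06, adjusted p = 2.54e-07). *Gpnmb*, truncated in D2, had 34 reads in B6 and 3 in D2, a ratio of 9.91 (3.12 to 50.4), and was called in Ctr (adjusted p = 0.0479) and not in SD (adjusted p = 0.0995). *Glo1*, glyoxalase 1, was 1.33-fold higher in D2. *Apoa2* and *Klrd1* did not pass the test (-0.19, adjusted p = 0.109, and 1.79, adjusted p = 0.0898). Of 12 genes taken from the study's text and supplementary scores 10 were called, 4 higher in B6 and 6 in D2. Most were put forward from data that include these libraries, so the count is no independent evidence. *Vipr2*, the receptor of vasoactive intestinal peptide, had 2 reads in B6 and 92 in D2, a ratio of 52.6 (14.2 to 441), with D2 at 2.79 and 2.35 in Ctr and 0.95 and -0.52 in SD. *Acot11*, an acyl-CoA thioesterase, was at 5.47, 5.23, 4.66 and 4.96 in B6 and 4.89 and 4.22 in D2 Ctr, with a mean of 3.24 in D2 SD (2.27-fold, adjusted p = 0.000612), but was called in SD (adjusted p = 0.00074) and not in Ctr (adjusted p = 0.057). *Camk1d* was 1.47-fold higher in B6 and *Kif16b* 1.34-fold higher in D2, while *Wrn* and *Ttll8* were at 0.14 ± 0.07 and -0.21 ± 0.39 (adjusted p = 0.201 and 0.748).

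Genes that differed in the same direction were sometimes neighbours. Among 13105 genes with a position in the mm9 annotation, 54 runs of at least 3 adjacent listed genes were called with the same sign, 27 higher in B6 and 27 in D2, with 182 genes in all. The longest runs held 5 genes, and there were 5 of them. On chromosome 3 the run was *Gstm5*, *Gstm7*, *Gstm6*, *Gstm3* and *Gstm2* (chr3:107698739-107789371, all higher in D2). On chromosome 17 it was *C920025E04Rik*, *H2-T10*, *Gm7030*, *Gm8909* and *H2-T3* (chr17:36245531-36327232, -5.09 to -2.44), where *Gm7030* and *Gm8909* share 100% and 99.6% of their stretches with other genes. A second run on chromosome 17 held the zinc finger genes *Zfp943*, *Zfp947*, *Zfp944*, *Zfp758* and *Zfp946* (chr17:22099519-22593656), higher in B6 by 0.30 to 1.27. *Zfp946*, *Zfp947* and *Zfp758* lost their call in 9, 8 and 2 of 18 alternative settings.

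On chromosome 12 *Grhl1*, *Klf11*, *Cys1*, *Rrm2* and *Kidins220* (chr12:25257152-25746142) were all higher in B6, led by *Rrm2*, the small subunit of ribonucleotide reductase, at 4.81, 5.00, 5.83 and 5.03 in B6 and 3.23, 3.16, 2.93 and 2.62 in D2. In that run *Cys1* lost its call in 4 of 18 alternative settings and *Kidins220* in 1. On chromosome 5 the run from *Spp1* to *Zfp951* (chr5:104864137-105246371) was higher in B6 by 0.59 to 1.65. Shorter runs covered *Serpina1d*, *Serpina1a*, *Serpina1c* and *Serpina1e* on chromosome 12 and *Cyp4a14*, *Cyp4a10* and *Cyp4a31* on chromosome 4. Gene families with shared sequence were among the runs, and where sequence is shared the reads of a gene can be assigned to its neighbour. The part of this in the runs was not tested.

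For cell types other than hepatocytes, the summed levels of cholangiocyte, endothelial, erythroid and exocrine pancreas markers did not overlap between the strains. In whole liver, fewer cells of a type and less RNA per cell cannot be told apart. Of 6 cholangiocyte markers 4 were higher in B6 (*Spp1*, *Epcam*, *Cftr* and *Sox9*), or 3 with median-centred libraries, quantile normalization or the density trend removed. Their summed level was 142 to 170 CPM in B6 and 80.3 to 99.3 in D2. Most of that sum was *Spp1*, osteopontin, at 6.87, 6.82, 6.72 and 6.65 in B6 and 5.56, 5.89, 5.87 and 5.61 in D2 (2.05-fold), and without it the sums were 41.4 to 60.5 CPM in B6 and 31.5 to 40.8 in D2. Of 10 endothelial markers 5 were higher in D2, with a sum of 582 to 759 CPM in B6 and 824 to 966 in D2, and 1 of the 5 was held in both conditions. Without *Stab2*, which was also higher in D2 in cortex, the sums overlapped, at 469 to 628 CPM in B6 and 591 to 741 in D2. *Stab2* (chr10:86303943-86470770), the hyaluronan receptor of sinusoidal endothelium, was at 6.86, 6.81, 7.04 and 6.85 in B6 and 7.87, 7.95, 7.80 and 7.73 in D2 (1.93-fold, adjusted p = 3.42e-07), and *Pecam1* and *Tek* were 1.44-fold higher in D2 each.

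Of 13 Kupffer cell and macrophage markers 1 was called, *Folr2* (chr7:108988512-108993831), a folate receptor of resident macrophages, at 4.26, 3.99, 4.59 and 4.58 in B6 and 0.61, 0.00, 0.06 and 1.43 in D2 (14.2-fold, 3.83 ± 0.29, adjusted p = 5.64e-07). The sum of that list overlapped between the strains, at 621 to 790 CPM in B6 and 616 to 1039 in D2. Of 10 stellate cell and fibroblast markers 2 were higher in B6 (*Col1a1*, *Lrat*) and 3 in D2 (*Reln*, *Rgs5*, *Dcn*). The stellate cell sums met at their edges, at 690 to 889 CPM in B6 and 888 to 973 in D2. The B cell, T and NK cell, neutrophil and adipocyte sums overlapped between strains, and the 2 B6 SD libraries had neutrophil sums of 57.5 and 174 CPM. The sum of 4 erythroid markers did not overlap, at 208 to 249 CPM in B6 and 297 to 317 in D2. Most of that sum was *Alas2*, at 7.84, 7.82, 7.63 and 7.68 in B6 and 8.09, 8.09, 8.27 and 8.26 in D2. *Alas2* was the only one of the 4 called, higher in D2. The sum without it was not taken, and the globin genes were not analysed here. The sum of 2 exocrine pancreas markers did not overlap either, at 33.8 to 54.9 CPM in B6 and 69.5 to 76.4 in D2, with *Cela2a* higher in B6 and *Cela1* in D2, while *Prss1* and *Cpa1* were not analysed here. The part of these cell types in the strain differences was not tested.

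The strain difference itself was tested against condition by an interaction term, which asks whether SD changed expression differently in B6 and D2. It was called in 1014 genes (7.19%), in 247 of which the signed B6 minus D2 difference was more positive in SD than in Ctr and in 767 more negative. The count was 11 with the density trend removed, 0 without a mean-variance trend in limma (2894 genes at an unadjusted p under 0.05), 1028 by limma voom on recovered reads, and 7 to 775 when a library was left out. Median-centring, quantile normalization and removal of the density trend moved the share that was more positive in SD from 24.4% to 12.9%, 42.1% and 72.7%. Of the 1001 held genes 52 were among the 1014. Of the 11 genes called with the trend removed, 10 were among the 1014. The 1014 included 12 of the 13 hepatocyte markers, of which 0 were called with the density trend removed.

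The 8 interaction genes with the smallest p began with *Mug2* (chr6:121956816-122035985), a murinoglobulin that inhibits proteases in plasma. *Mug2* was at 9.12 and 9.24 in B6 Ctr and 9.02 and 9.03 in B6 SD, but at 6.47 and 6.65 in D2 Ctr and 5.17 and 5.02 in D2 SD. Its strain difference was 2.62 in Ctr and 3.93 in SD (interaction 1.31 ± 0.11, adjusted p = 0.0017). The small heat shock protein gene *Hspb1* was at 4.72 and 4.77 in B6 Ctr and 3.67 and 3.88 in D2 Ctr, and at 5.42 and 5.46 in B6 SD and 6.05 and 6.06 in D2 SD, so the strains changed order (-1.59 ± 0.16, adjusted p = 0.00482). The nuclear corepressor gene *Nr0b2*, which acts on bile acid synthesis, also changed order, from 6.07 and 5.83 against 5.39 and 5.35 in Ctr to 5.45 and 5.39 against 6.04 and 6.12 in SD (-1.24 ± 0.14, adjusted p = 0.0089).

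The glycogen-targeting phosphatase subunit gene *Ppp1r3c* had an interaction of -1.02 ± 0.12, with SD values of 6.06 and 6.04 in B6 against 6.85 and 6.71 in D2. *Dixdc1*, a Wnt pathway gene, was at 6.13 and 6.25 in B6 SD and 4.80 and 4.84 in D2 SD (1.04 ± 0.12), against 6.40 and 6.47 and 6.17 and 6.04 in Ctr. *4932438A13Rik* (0.86 ± 0.08), *Cyp2a5* (-0.59 ± 0.08) and *Tmc5* (3.90 ± 0.48) completed the 8. *Tmc5* had 0 and 1 read in the B6 Ctr libraries, so the size of its interaction depends on the value given to a gene without a read. *Mug2*, *4932438A13Rik*, *Hspb1*, *Nr0b2*, *Tmc5* and *Ppp1r3c* were still called with the density trend removed (adjusted p = 0.00251, 0.0207, 0.0222, 0.0353, 0.0353 and 0.0485), whereas *Dixdc1* and *Cyp2a5* were not (0.0643 and 0.114).

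The parental levels were set beside the liver libraries of the reciprocal F1 crosses and of 33 BXD/RwwJ lines, each a single library per condition, as a description. For the 24 genes with the largest parental differences, 95 of 96 F1 values lay between the 2 parental means of that condition. For the 12 abundant genes 39 of 48 did. The 24 genes were picked for wide parental gaps, often with a parent near the value of a gene without a read. Few F1 values could thus fall outside, and their count says little. *Mug2* was at 8.91 to 9.08 in the 4 F1 libraries, near B6. *Neto1* was at -1.46 to 0.62 in F1, and *Mrap2* at 4.29 to 4.81.

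In the BXD lines, which are homozygous for either parental allele at most loci, several of these genes ranged widely in Ctr. *Trim12a* ran from -2.77 to 5.15, with 21 of 33 lines above the parental midpoint. *Mrap2* ran from -2.77 to 6.10 with 20 lines above, *Corin* from -0.42, above both B6 libraries, to 6.92 with 28 and *Ctse* from -1.71 to 7.22 with 14. The abundant gene *Hc* ran from 8.56 to 10.03 with 18 lines above. For *Neto1* the highest BXD line, at 2.19, stayed below both D2 libraries.

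**Figure D5:**
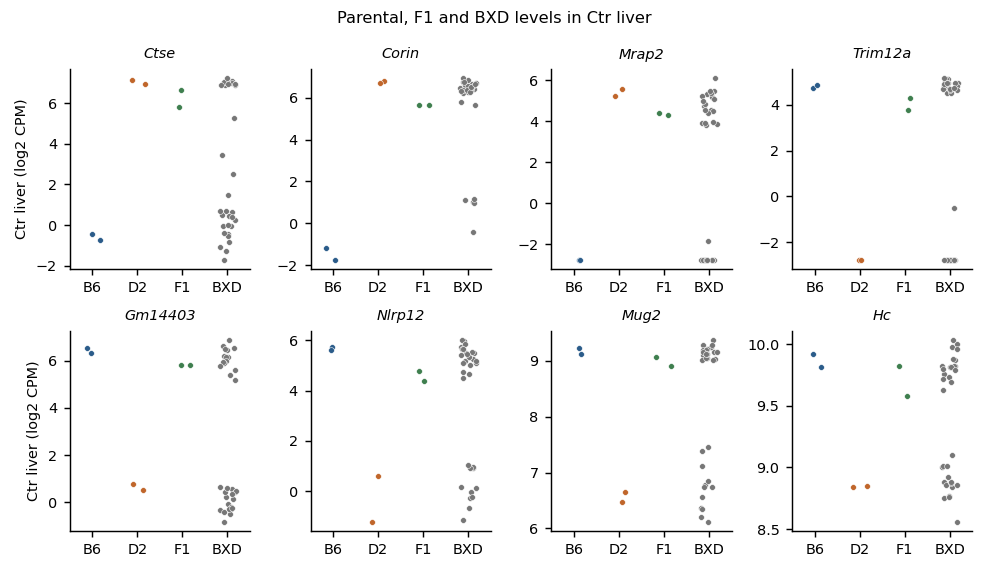
Level in Ctr liver (log2 CPM) of 8 genes with a strain difference in the 2 B6 and 2 D2 libraries, the 2 reciprocal F1 libraries and the 33 BXD/RwwJ lines, 1 point a library and each panel on its own scale. BXD points lie at low and at high levels in each panel, and F1 points lie between the parents or near B6 (*Mug2*).

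The same comparison was run on the cortex of the same strains, 4 libraries against 4. Of 12695 genes listed in both tissues the strains differed in 3153 in cortex (24.8%) and 2126 in liver. Called in both with the same sign were 571 genes, which is 26.9% of the liver calls and 18.1% of the cortex calls, and 270 were called in both with opposite signs. *Gm14403*, *Trim12a*, *2610507I01Rik* and *Mndal* were higher in B6 in cortex too, by 7.17 ± 0.30, 5.37 ± 0.37, 3.59 ± 0.09 and 3.93 ± 0.42. *Mlycd* went the other way there, at -1.31 ± 0.09 (adjusted p = 2.71e-08) against 1.25 ± 0.07 in liver. *Crym*, *Mrap2*, *Neto1* and *Dhtkd1* were at 0.02, -0.06, 0.00 and 0.06 in cortex (adjusted p = 0.882, 0.87, 0.995 and 0.729). *Alad* and *Fmo2* were higher in D2 in both tissues, with cortex differences of -1.54 ± 0.05 and -1.78 ± 0.18. *Stab2*, which is specific to sinusoidal endothelium in liver, differed by -7.11 ± 0.20 in cortex.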

How the data were processed

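RNA-seq libraries of liver and cortex were made from pooled RNA, of 3 mice in the parental strains (fewer in 3 of the BXD lines). Per the study's methods, the authors aligned reads to mm9 with STAR, counted them per RefSeq gene with htseq-count, using strand, excluded genes of low mean count, normalised with edgeR's TMM method and deposited log2 CPM, the unit used here. A count test was replaced by limma 3.58.1 (R 4.3.3) because the values are on the log2 scale, with an intensity trend in the empirical Bayes step. Reads recovered from the deposited values were whole in 100% within 0.02 and served voom, the floors (3 reads over the 4 libraries of a strain) and the exact 95% ratio intervals. Positions came from an mm9 annotation, and reads per exonic base used 13105 of 14107 genes (92.9%). Scripts were tested on simulated data.

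Named genes were the 12 largest called differences each way with a mean of at least 0 log2 CPM and no overlap, the 6 largest each way at a mean of at least 8, the 8 interaction genes with the smallest p, up to 4 called members of each gene list, 12 genes taken from the study's text and supplementary scores and the 3 longest neighbour runs. Ties in run length and further list members were chosen after their values were seen. The comparison, the 27 gene lists and the 11 marker lists were chosen with earlier results of these data known. Sampling round, which the series description ties to the replicate numbers, pairs the libraries by label, although deviations of same-round libraries correlated only at -0.0763 to 0.117. Alternatives were a round block, a random block, other scalings, filters and pseudocounts, voom, a fit over all 43 pools of each condition and leaving out each library. Some results on single genes are not reported here.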

Additional observations from a re-analysis of the deposited data

Results flagged for a closer look

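The strain difference differed between Ctr and SD, by the interaction term in limma, in the 8 named interaction genes, given as the difference in SD minus that in Ctr. It was 3.90 for *Tmc5*, a size that depends on the value given to a gene without a read because B6 Ctr had 0 and 1 read. It was 1.31 for *Mug2*, 1.04 for *Dixdc1* and 0.86 for *4932438A13Rik*, and -1.59 for *Hspb1*, -1.24 for *Nr0b2*, -1.02 for *Ppp1r3c* and -0.59 for *Cyp2a5*. Each was called in 12 to 16 of 17 settings, and none without the variance trend, where the adjusted p was 0.136 to 0.139. The 2 D2 SD libraries were the shallowest, and the part of depth in these values was not tested.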

How the results depend on the processing

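Without the variance trend 843 genes were called in Ctr, 635 were held in both conditions and the interaction was called in 0, with 2894 at an unadjusted p under 0.05 in limma. With the read density trend removed, chosen after seeing the data, 2691 were called in SD and 11 had an interaction. The interaction count was 1612 with median-centred libraries and 546 with quantile normalization. Leaving out 1 library gave 1875 to 2423 strain calls, 777 to 1516 in Ctr, 2740 to 4063 in SD, 611 to 903 held, 7 to 775 with an interaction and 420 to 491 shared with cortex. The lowest interaction counts came without B6 Ctr replicate 1 (7), D2 SD replicate 2 (8), B6 Ctr replicate 2 (25) and B6 SD replicate 1 (49), and it was 323 and 618 without D2 Ctr replicate 2 and D2 SD replicate 1. Ctr calls were 779, 777, 822 and 870 without B6 Ctr replicates 1 and 2 and D2 Ctr replicates 1 and 2, and held genes 627, 611 and 656 without the first 3. The causes were not tested. With sampling round as a replicate block the counts were 2356 over both conditions, 1526 in Ctr, 4192 in SD, 926 for the interaction and 583 shared with cortex, and 8 named genes lost their call. Of 164 named and called genes 112 were called under every setting and 52 lost the call under at least 1, and 0 reversed. The libraries held 5690812 to 7491781 reads, with 2 pools a group, and which differences this depth can detect in genes with few reads was not measured.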
